A study of Mus musculus with 4 samples.

Results

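Major histocompatibility complex (MHC) class II genes and their activator were described on 4 Affymetrix arrays of sorted mouse bone marrow cells. The 6 genes were H2-Aa, H2-Ab1, H2-Eb1, H2-DMa, Cd74 and Ciita, listed by name and not by their values, among 18194 genes tested. They were read by 14 probe sets, which are groups of short probes for one transcript, and each gene's main value is that of its probe set with the highest mean over the 4 arrays. Bone marrow cells without lineage markers and with c-Kit and Sca-1 on their surface, a gate that holds stem cells and multipotent progenitors, came from C57BL/6 mice aged 8 weeks. There were 2 arrays labelled WT and 2 labelled Alox15-/-, the latter from mice named for a deletion of Alox15, the arachidonate 15-lipoxygenase gene. The labels give no other allele or agent, and do not say how many animals stood behind an array. They call the arrays of a group biological replicates, and p-values therefore reflect variation among these samples alone, part of which may be technical.

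Class II molecules present peptides from engulfed and endosomal proteins to CD4+ T cells, and their high expression is characteristic of B cells, dendritic cells and activated macrophages. An alpha and a beta chain pair with the invariant chain, encoded by Cd74, which fills the groove until it is cut down in the endosome, and the H2-DM heterodimer then exchanges its remnant for peptide. Transcription depends on a conserved promoter module, in which RFX factors bind the X box and NF-Y the Y box, and on Ciita, a coactivator that binds no DNA itself. In C57BL/6 mice the alpha chain gene of the E molecule, H2-Ea, is a pseudogene, so the beta chain encoded by H2-Eb1 has no partner at the surface.

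Of the 6 genes, H2-DMa, H2-Ab1, H2-Aa and H2-Eb1 lie on chromosome 17 in that order, and the last 3 are neighbours in the RefSeq gene table. Ciita lies on chromosome 16. The promoter windows of H2-Aa and H2-Eb1 are shown because both hold X box and Y box letters at like spacing. Whether these letters bear on the values of the genes was not tested. Each window runs from 250 bases before to 50 bases after the transcription start in RefSeq's GRCm38.p6. The H2-Aa window is chr17:34287774-34288073 on the minus strand and that of H2-Eb1 is chr17:34305617-34305916 on the plus strand. Capitals mark GCAAC, which is part of the X box, and GATTGG, which holds the reversed CCAAT core of the Y box.
H2-Aa: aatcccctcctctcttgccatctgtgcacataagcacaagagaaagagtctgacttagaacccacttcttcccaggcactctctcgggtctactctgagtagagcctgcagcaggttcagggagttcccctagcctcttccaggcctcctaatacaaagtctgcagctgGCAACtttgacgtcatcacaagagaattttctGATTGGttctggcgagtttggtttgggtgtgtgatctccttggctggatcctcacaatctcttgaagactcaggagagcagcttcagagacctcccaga
H2-Eb1: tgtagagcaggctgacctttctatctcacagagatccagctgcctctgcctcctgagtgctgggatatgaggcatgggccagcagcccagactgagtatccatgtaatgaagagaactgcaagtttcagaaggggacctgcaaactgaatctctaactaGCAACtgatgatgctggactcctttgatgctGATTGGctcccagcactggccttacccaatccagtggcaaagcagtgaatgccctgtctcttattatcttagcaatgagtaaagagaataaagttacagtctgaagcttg

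In H2-Aa the 2 marked runs are 27 bases apart and begin 81 bases before the start. In H2-Eb1 they are 26 apart and begin 91 before it. Searching both strands, GCAAC is found in 35.2% and GATTGG in 16.1% of 32851 promoter windows of 300 bases, and GCAAC followed by GATTGG on one strand after 20 to 40 bases in 0.35%. The pair was also found in 3 other class II genes, shown from the first to the last marked base, all on the plus strand: H2-Oa (chr17:34092303-34092340), H2-Ob (chr17:34238818-34238852) and H2-Eb2 (chr17:34325543-34325579).
H2-Oa: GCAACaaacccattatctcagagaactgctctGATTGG
H2-Ob: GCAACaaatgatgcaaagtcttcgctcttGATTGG
H2-Eb2: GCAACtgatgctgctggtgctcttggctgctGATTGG

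Both windows of H2-DMa, and those of H2-DMb1 and H2-DMb2, did not hold the pair in these letters. A match describes the letters of a window and shows no binding. Windows of H2-Ab1, Cd74 and Ciita were not used here.

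The deposited values are log2 values. Alox15 itself went against the labels, at 4.63 and 4.35 in WT but at 10.68 and 10.75 where the label says Alox15-/-, so each direction here is that of the arrays as labelled. Of 27 control probe sets for bacterial sequences, the highest on each array lay between 4.95 and 5.17, and this value serves as a mark for background. Of the sorting gate and stem cell genes, 13 of 15 were measured and all 13 lay above that control on every array. The gate's receptor gene Kit read 10.23 to 10.63 and Cd34 11.50 to 11.62. The control probe sets for the ends of the Gapdh transcript differed by 2.37 and 2.39 in WT against 2.14 and 2.17, and so separated the groups but hardly the arrays within a group. Those for the Actb transcript differed by -0.23 and -0.19 in WT and by -0.13 and -0.28 in Alox15-/- replicates 1 and 2, so that the groups overlapped and the latter 2 arrays lay farthest apart. The part of RNA quality in the class II values was not tested.

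All 6 genes had a main probe set above the bacterial controls on every array, and none passed limma's threshold for a difference between the groups, with adjusted p of 0.840 or more. The alpha and beta chain genes H2-Aa, H2-Ab1 and H2-Eb1 and the invariant chain gene Cd74 differed more between the 2 arrays labelled Alox15-/- than between the groups. All 4 were low in Alox15-/- replicate 1 and high in Alox15-/- replicate 2, by 0.66 to 0.87 on the log2 scale, whereas their group means differed by -0.08 to 0.13. H2-DMa and Ciita were nearly level over the arrays, ranging over 0.20 and 0.37. For H2-DMa, unlike the other 5 genes, the group means differed by more than the arrays within either group, though by only 0.13.

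H2-Aa, the alpha chain of the A molecule, read 8.42 and 7.97 in WT replicates 1 and 2, and 7.99 and 8.65 in Alox15-/- replicates 1 and 2. One array of each group was low and one was high, and the groups overlapped. The difference, arrays labelled Alox15-/- minus WT, was 0.13 ± 0.27 (SE, n = 2 each; 95% interval -0.56 to 0.81), with limma adjusted p = 0.935.

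H2-Ab1, the beta chain of the same molecule, read 8.80 and 8.71 in WT replicates 1 and 2, and 8.29 and 9.15 in Alox15-/- replicates 1 and 2. The WT arrays were close together and lay between the other 2, so one array labelled Alox15-/- was below both and one above both. The difference was -0.03 ± 0.29 (95% interval -0.77 to 0.70), with limma adjusted p = 0.985.

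H2-Eb1, the beta chain of the E molecule, read 7.43 and 6.72 in WT replicates 1 and 2, and 6.57 and 7.43 in Alox15-/- replicates 1 and 2. WT replicate 1 and Alox15-/- replicate 2 shared the high value, and the remaining arrays were low. The difference was -0.08 ± 0.36 (95% interval -0.99 to 0.84), with limma adjusted p = 0.972.

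Cd74, the invariant chain, had 1 probe set, which read 7.54 and 7.28 in WT replicates 1 and 2, and 7.02 and 7.88 in Alox15-/- replicates 1 and 2. As for H2-Ab1, the WT arrays lay between the other 2. The difference was 0.04 ± 0.30 (95% interval -0.72 to 0.81), with limma adjusted p = 0.982.

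H2-DMa, the alpha chain of the peptide exchange factor, read 9.26 and 9.37 in WT replicates 1 and 2, and 9.46 and 9.43 in Alox15-/- replicates 1 and 2. Both arrays of the second group were above both WT arrays. The difference was 0.13 ± 0.13 (95% interval -0.20 to 0.46), with limma adjusted p = 0.840. Its other probe set read 6.60 and 6.73 in WT replicates 1 and 2, and 7.00 and 7.23 in Alox15-/- replicates 1 and 2, again without overlap. That difference was 0.45 ± 0.16, with unadjusted p = 0.0341 and limma adjusted p = 0.622 in a fit of all 34958 named probe sets.

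Ciita, the class II coactivator, read 5.62 and 5.32 in WT replicates 1 and 2, and 5.69 and 5.47 in Alox15-/- replicates 1 and 2. The groups overlapped, and every value lay close to the highest bacterial control. The difference was 0.11 ± 0.17 (95% interval -0.32 to 0.53), with limma adjusted p = 0.907. Its other probe sets gave -0.0025 and 0.26, the latter from 5.07 and 4.96 in WT against 5.21 and 5.34, without overlap.

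**Figure D1:**
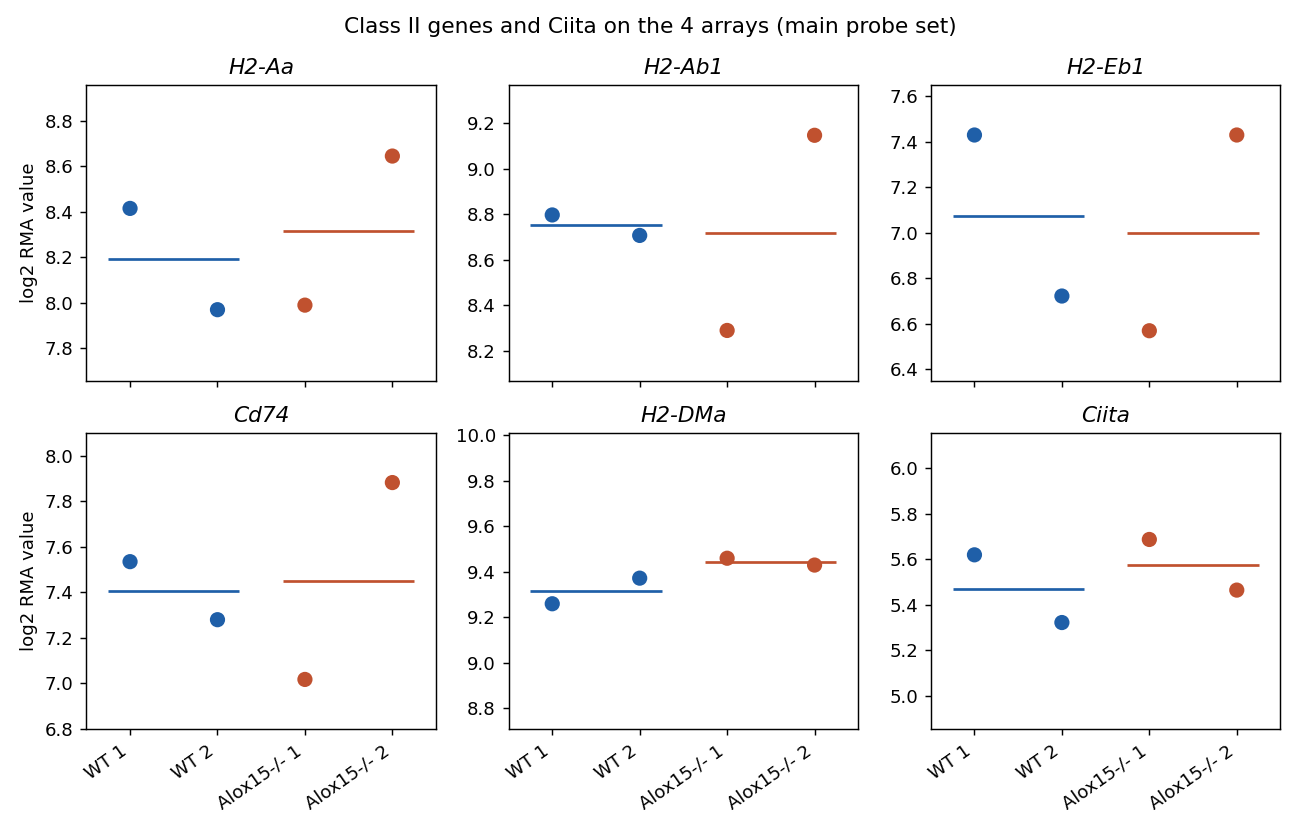
Log2 RMA values (y axis, each panel spanning the same height) of the main probe set of each gene on the 4 arrays (x axis); points are arrays and lines are group means, blue for WT and orange for the arrays labelled Alox15-/-. H2-Aa, H2-Ab1, H2-Eb1 and Cd74 spread more between Alox15-/- replicates 1 and 2 (0.66 to 0.87) than between the group means.

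By limma, 0 of the 6 genes passed an adjusted p of 0.05, against 0.0055% of all genes tested, which is the 1 gene Alox15. At an unadjusted p under 0.05 the count was also 0 of 6, against 7.77% of all genes. Groups did not overlap with the arrays labelled Alox15-/- higher for 1 of 6, H2-DMa, against 21.4% of all genes, and with them lower for 0 of 6, against 17.1%. The median difference over the 6 was 0.07, against 0.02 over all genes. The intervals still allow differences of up to 0.99 on the log2 scale in one direction or 0.84 in the other, so a p that misses the threshold does not show that the groups had the same level. An exact permutation test of a single gene over 2 against 2 arrays cannot give a two-sided p below 0.333.

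The direction of each difference other than that of H2-DMa turned with the arrays used. Without Alox15-/- replicate 2, Cd74 was at -0.39, H2-Aa at -0.20, H2-Ab1 at -0.46 and H2-Eb1 at -0.51. Without Alox15-/- replicate 1 the same genes were at 0.48, 0.45, 0.40 and 0.35. The median over the 6 genes was -0.30 in the first case and 0.37 in the second, and it was 0.21 without WT replicate 1 and -0.08 without WT replicate 2. H2-DMa stayed between 0.07 and 0.19 and Ciita ran from -0.04 to 0.25. In these fits the lone array of a group is assumed to vary like the other group, and limma adjusted p was 0.633 or more for every gene.

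**Figure D2:**
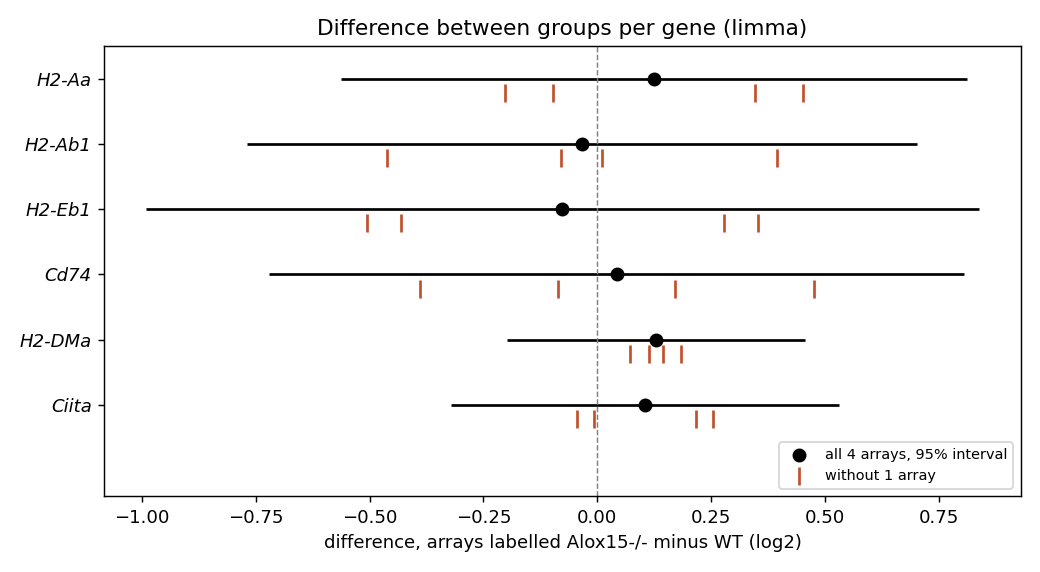
Difference between the groups on the log2 scale (x axis, arrays labelled Alox15-/- minus WT) for each gene; black points with lines are limma estimates with 95% intervals, and orange ticks are the estimates without 1 array. All intervals span 0, and ticks lie on both sides of 0 for every gene but H2-DMa (0.07 to 0.19).

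The shared behaviour of the chain genes and Cd74 was visible at most of their probe sets. These 4 genes had 8 probe sets above the bacterial controls, and Alox15-/- replicate 2 was the highest array, or tied for it, in 8 of 8. The genes were grouped after the values of their main probe sets were seen, and those are among the 8. Only the further probe sets of H2-Aa and H2-Ab1 could therefore have gone otherwise. The share of all probe sets with this order was not taken. Alox15-/- replicate 1 was the lowest in 6 of 8. The exceptions were the main probe set of H2-Aa, where WT replicate 2 was 0.02 lower, and another probe set of H2-Ab1, where WT replicate 1 was lowest at 6.69. The gap between the 2 arrays labelled Alox15-/- ran from 0.56 to 1.05 over the 8. Probe sets whose names end in _x_at or _s_at can take up signal from related transcripts. Of the 4 probe sets of H2-Aa, 3 end in _x_at and the other in _s_at. The main probe set of H2-Ab1 ends in _s_at and another of its probe sets in _x_at. Those of H2-Eb1 and Cd74 have neither ending. The H2-Aa probe set outside the 8, which ends in _x_at, read 2.15 to 2.30, below the controls on every array.

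Between the WT arrays the probe sets of H2-Ab1 did not share a direction. Replicate 1 was higher by 0.09 at the main one, and lower by 0.24 and 0.11 at the others, which read 6.69 and 6.93, and 5.89 and 5.99. The gap of WT replicate 1 over replicate 2 was 0.45 for H2-Aa, 0.71 for H2-Eb1 and 0.26 for Cd74. The WT part of the pattern was thus clearest in H2-Eb1 and the Alox15-/- part was present in all 4 genes.

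**Figure D3:**
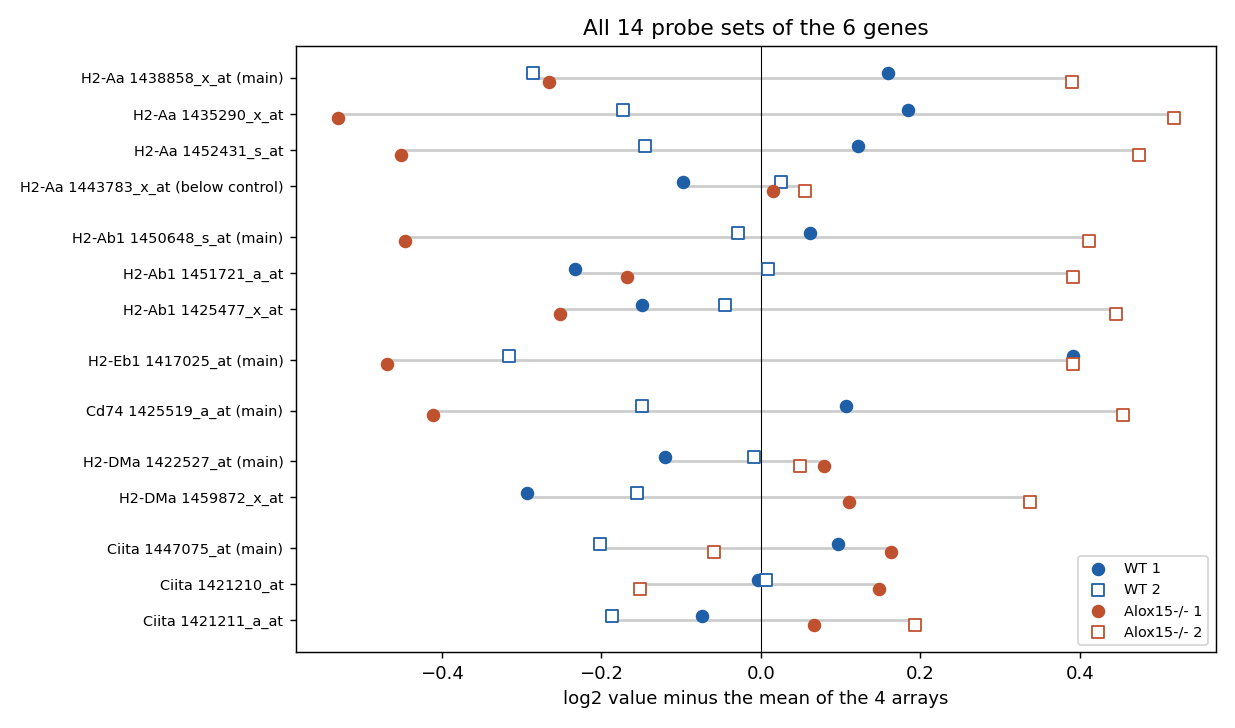
Each of the 14 probe sets (rows) with its log2 value on each array minus its mean over the 4 arrays (x axis); blue is WT, orange Alox15-/-, filled circles replicate 1 and open squares replicate 2. The orange square lies farthest right, or level with the WT circle, in all 8 rows of H2-Aa, H2-Ab1, H2-Eb1 and Cd74 above the bacterial controls.

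Gaps of this size between the arrays labelled Alox15-/- were uncommon among all genes, whose median gap was 0.15. For Cd74, Alox15-/- replicate 2 was 1.82-fold above replicate 1, a gap that 2.03% of genes reached in either direction. H2-Eb1 had a like gap of 1.82-fold (2.09% of genes), H2-Ab1 one of 1.81-fold (2.10%) and H2-Aa one of 1.57-fold (4.47%). Those of H2-DMa and Ciita were within the usual range, reached by 88.1% and 34.6% of genes. Between the WT arrays, whose median gap over all genes was 0.19, the gap of H2-Eb1 was reached by 4.39% of genes and that of H2-Aa by 15.2%. Those of Cd74 and H2-Ab1 were reached by 37.4% and 73.6%.

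Likeness of pattern was measured as the Euclidean distance over the 4 arrays between log2 values centred on each gene's own mean, among genes with a mean above the bacterial controls. This comparison of each of the 6 genes with every other was added after their values were seen, and 4 arrays give many genes a like pattern. Around Cd74, Capns2, Zfp341 and Trim6 had ranks 1 to 3 of 13378 genes. H2-Ab1 had rank 4 (distance 0.14), H2-Aa rank 22 and H2-Eb1 rank 182. H2-DMa and Ciita were at ranks 6507 and 8878. Around H2-Eb1, H2-Aa had rank 32 and Cd74 rank 51, while Fgr, Lgalsl and Lmo4 had ranks 1 to 3. Igk, the immunoglobulin kappa locus, had rank 4 and is named after its values were seen. It read 9.81 and 8.98 in WT, 9.08 in Alox15-/- replicate 1 and 9.90 in Alox15-/- replicate 2. Around Ciita the chain genes and Cd74 lay at ranks 11278 to 12572, and H2-DMa at rank 4287. At its main probe set Ciita, read close to background, thus ordered the arrays differently from the chain genes and Cd74. Its other probe sets did not share 1 order. The one with a difference of 0.26 ordered the arrays within each group as the chain genes did. The one with -0.0025 had the opposite order, at 5.31 and 5.32 in WT, and 5.47 and 5.17 in Alox15-/- replicates 1 and 2.

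By the rule set for naming genes, the 5 nearest to the mean pattern of all 6 were Twist2, Cebpb, 2510039O18Rik, Bsn and Ly6g2, at distances of 0.02 to 0.08 among 13373 genes. Cebpb, which encodes a myeloid transcription factor, read 8.66 and 8.38 in WT replicates 1 and 2, and 8.30 and 8.75 in Alox15-/- replicates 1 and 2. That mean pattern blends unlike genes, since H2-DMa and Ciita themselves lay at distances of 0.47 and 0.51 from it.

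Of other class II genes, 5 of 7 names written were measured, and 0 passed the threshold in either direction by limma. H2-Ob, the beta chain of the DM inhibitor H2-DO, read 10.29 and 10.14 in WT replicates 1 and 2, and 9.77 and 9.71 in Alox15-/- replicates 1 and 2. Both arrays of the second group were lower, by -0.48 ± 0.13 (limma adjusted p = 0.580). Its partner H2-Oa overlapped between the groups, at 8.00 and 7.75 in WT and 7.78 and 7.86, with a difference of -0.06. The pseudogene H2-Ea had -0.40 at its main probe set, without overlap, and 0.20 and 0.38 at probe sets below the bacterial controls on every array. H2-DMb2, a beta chain partner of H2-DMa, had 0.09 and H2-Eb2 0.05, both with overlap, and H2-DMb2 was at -0.14 and -0.04 at its other probe sets. At main probe sets the median gap was -0.06 for Alox15-/- replicate 2 over replicate 1, and 0.21 for WT replicate 1 over replicate 2. The high value of Alox15-/- replicate 2 was thus not seen in the median of this list. It was seen at the other probe sets of H2-DMb2, where that array was higher than Alox15-/- replicate 1 by 0.63 and 0.425. The gap was -0.32 at the main probe set of H2-DMb2. In WT, replicate 1 lay below replicate 2 at those other probe sets, unlike in most of the chain genes.

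Of the factors that bind class II promoters, 8 of 9 were measured and 0 passed the threshold by limma. Their median difference was -0.14, with 6 of 8 below 0, against 8384 of all 18194 genes. For 4 of 8 the arrays labelled Alox15-/- did not overlap with WT and were lower, against 17.1% of all genes. Rfx5, a subunit of the RFX complex on the X box, read 10.51 and 10.46 in WT replicates 1 and 2, and 10.28 and 10.22 in Alox15-/- replicates 1 and 2, a difference of -0.24 ± 0.13. Rfxank, another RFX subunit, had -0.32, with -0.21 and 0.38 at its other probe sets. Nfyb, a subunit of the Y box factor NF-Y, had -0.15 and 0.16 at a second probe set. Without Alox15-/- replicate 1, Rfxank was at -0.21 and Nfyb at -0.08. Crem, a relative of the X2 box factor CREB, had -0.95, with -0.21 to -0.09 at its other probe sets, and ran from -1.23 to -0.67 without 1 array.

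Of genes that raise or lower Ciita, 16 of 17 were measured, 0 passed the threshold by limma, and the median difference was -0.03. Irf8, a transcription factor of dendritic cells and monocytes, read 8.54 and 8.58 in WT replicates 1 and 2, and 9.36 and 8.998 in Alox15-/- replicates 1 and 2, a difference of 0.62 ± 0.17 (limma adjusted p = 0.578), and 0.31 at its second probe set, also without overlap. The cytokine signalling inhibitors Socs3 and Socs1 had 0.54 and 0.39. The other probe sets of Socs3 gave 0.11 and 0.35, both with overlap. Il10ra, a chain of the interleukin 10 receptor, had 0.47, with -0.08 and a value near 0 at its other probe sets. At the main probe sets of these 4, named for having the widest differences, the groups did not overlap. Over the whole list, groups did not overlap for 5 of 16 with the arrays labelled Alox15-/- higher, against 21.4% of all genes. They were lower without overlap for 4 of 16, against 17.1%. Socs1 was above the bacterial controls on 1 of 4 arrays, and Socs3 ran from 0.16 without WT replicate 1 to 0.92 without WT replicate 2.

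Genes that process antigen and invariant chain in the endosome had a median of 0.09 over 17 of 20 measured, with 10 above 0, and 0 passed the threshold by limma. Ifi30, the thiol reductase that opens disulphide bonds of antigens, read 6.14 and 6.89 in WT replicates 1 and 2, and 7.54 and 7.52 in Alox15-/- replicates 1 and 2. Both of the latter were higher, by 1.02 ± 0.26 (limma adjusted p = 0.575), a difference of 0.64 without WT replicate 1 and 1.40 without WT replicate 2. The lysosomal proteases Ctsz and Ctsd had 0.38 and 0.33, also without overlap. Other probe sets of Ctsz gave 0.35, without overlap, and 0.24, with overlap. Over the whole list, groups did not overlap for 6 of 17 with the arrays labelled Alox15-/- higher, against 21.4% of all genes. They were lower without overlap for 1 of 17, against 17.1%. Lgmn, an endosomal protease, had 0.46 but lay below the bacterial controls on every array, and ran from 0.18 without Alox15-/- replicate 1 to 0.74 without Alox15-/- replicate 2.

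Class I presentation genes, which serve CD8+ T cells, had a median of -0.0037 over 15 of 17 measured, and 0 passed the threshold by limma. Tap2, of the peptide transporter, had 0.28, and the chaperones Canx and Pdia3 had 0.26 and 0.25. Psmb9, an immunoproteasome subunit, had 0.13. Without WT replicate 2, Tap2 was at 0.15, Pdia3 at 0.07 and Psmb9 at 0.23. Without WT replicate 1, Pdia3 was at 0.45 and Psmb9 at 0.03. Costimulatory genes had a median of -0.22 over 8 of 8, with 0 past the threshold by limma. Cd86, a ligand of CD28, had -0.67 and ran from -1.06 to -0.28 without 1 array, while Tnfsf4, the OX40 ligand gene, had 0.85 and lay above the bacterial controls on 2 of 4 arrays.

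At an unadjusted p under 0.05 limma placed 2 of the 5 other class II genes, 1 of 8 promoter factors and 4 of 16 genes acting on Ciita, against 7.77% of all genes. It placed 3 of 17 processing genes, 0 of 15 class I genes and 1 of 8 costimulatory genes.

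Markers of cells known for high class II were set beside the within-group gaps of the chain genes. Among all genes 26.0% had WT replicate 1 above replicate 2 together with Alox15-/- replicate 2 above replicate 1. Of B cell markers 6 of 18 measured did so, of dendritic cell markers 4 of 17 and of macrophage and monocyte markers 5 of 16, shares near that of all genes. The median gap of Alox15-/- replicate 2 over replicate 1 was -0.07 for B cell, -0.14 for dendritic cell and 0.06 for macrophage and monocyte markers, against 0.76 for the 6 class II genes. Fewer class II positive cells in the gate and less RNA per cell cannot be told apart in such bulk samples.

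The mean log2 level of the B cell markers was 6.22 and 6.26 in WT against 6.47 and 6.52. That of the dendritic cell markers was 6.45 and 6.57 against 6.59 and 6.46, and that of the macrophage and monocyte markers 6.01 and 6.33 against 6.67 and 6.50. Above the bacterial controls on all arrays were 13 of 18 B cell, 13 of 17 dendritic cell and 9 of 16 macrophage and monocyte markers. Below the bacterial controls on all arrays were 2 of the B cell, 3 of the dendritic cell and 2 of the macrophage and monocyte markers. The B cell gene Ms4a1, at 3.10 to 3.57, and the macrophage gene Adgre1, at 4.62 to 4.76, were among them, and are named as defining markers after their values were seen. Single markers differed in their pattern over the arrays, and those that follow were picked after their values were seen. At its main probe set the immunoglobulin heavy chain gene Ighm ordered the arrays within each group as the chain genes did. It read 9.88 and 9.61 in WT replicates 1 and 2, and 9.81 and 10.69 in Alox15-/- replicates 1 and 2. Other probe sets of Ighm did not all share that order in WT. The next brightest read 8.64 and 8.95 in WT, and 9.15 and 9.52 in Alox15-/- replicates 1 and 2. Csf1r, the receptor of the macrophage growth factor, had the order of the chain genes at its main probe set. That probe set read 8.90 and 8.35 in WT replicates 1 and 2, and 8.70 and 9.22 in Alox15-/- replicates 1 and 2. Another probe set of Csf1r had the opposite order in both groups. It read 6.31 and 6.73 in WT replicates 1 and 2, and 6.97 and 6.62 in Alox15-/- replicates 1 and 2. The remaining probe set of Csf1r had the order of the chain genes in Alox15-/- but not in WT. The monocyte gene Cd14 also had the order of the chain genes, at 4.92 and 4.43, and 4.91 and 5.61, and was above the bacterial controls on 1 of 4 arrays. Mrc1 and C1qb, with the widest group differences of the macrophage and monocyte list, had the opposite order in both groups. Mrc1 read 4.24 and 5.24 in WT, and 7.30 and 6.03 in Alox15-/- replicates 1 and 2. C1qb read 4.92 and 7.55 in WT, and 9.53 and 6.23. Mrc1 and C1qb were each above the bacterial controls on 3 of 4 arrays, and below them in WT replicate 1. The early B lineage gene Vpreb1 likewise had the order opposite to the chain genes in both groups, at 8.79 and 9.30 in WT, 10.69 in Alox15-/- replicate 1 and 9.46 in Alox15-/- replicate 2. Jchain, of antibody-secreting cells, again shared the order of the chain genes and was higher in Alox15-/- replicate 2 (7.75) than in replicate 1 (6.86), with 6.37 and 6.24 in WT. The part of these cells in the class II values was not tested.

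Mature neutrophil markers, which mark cells with little class II, were lowest in WT replicate 1, with a mean level of 5.75. It was 6.47 in WT replicate 2, 7.00 in Alox15-/- replicate 1 and 6.71 in Alox15-/- replicate 2. The median difference between the groups was 0.71. Groups did not overlap with the arrays labelled Alox15-/- higher for 6 of 10, against 21.4% of all genes. They were lower without overlap for 1 of 10, against 17.1%. T and NK cell markers had mean levels of 5.47 to 5.57, with 4 of 12 below the bacterial controls on every array, among them Cd3e, at 2.78 to 3.07. Sorting gate and stem cell genes had 10.02 and 10.06 in WT against 9.81 in each of the other arrays. Their median gap of Alox15-/- replicate 2 over replicate 1 was -0.04, against 0.76 for the 6 class II genes. Single genes of the list could differ more within a group, as Tek did. It read 7.63 and 8.24 in WT replicates 1 and 2, and 6.89 and 7.54 in Alox15-/- replicates 1 and 2. In these 6 marker lists 0 genes passed the threshold by limma, and at an unadjusted p under 0.05 it placed 4 of 18 B cell, 2 of 17 dendritic cell, 3 of 16 macrophage and monocyte, 5 of 10 neutrophil, 2 of 12 T and NK cell and 5 of 13 gate and stem cell genes, against 7.77% of all genes.

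**Figure D4:**
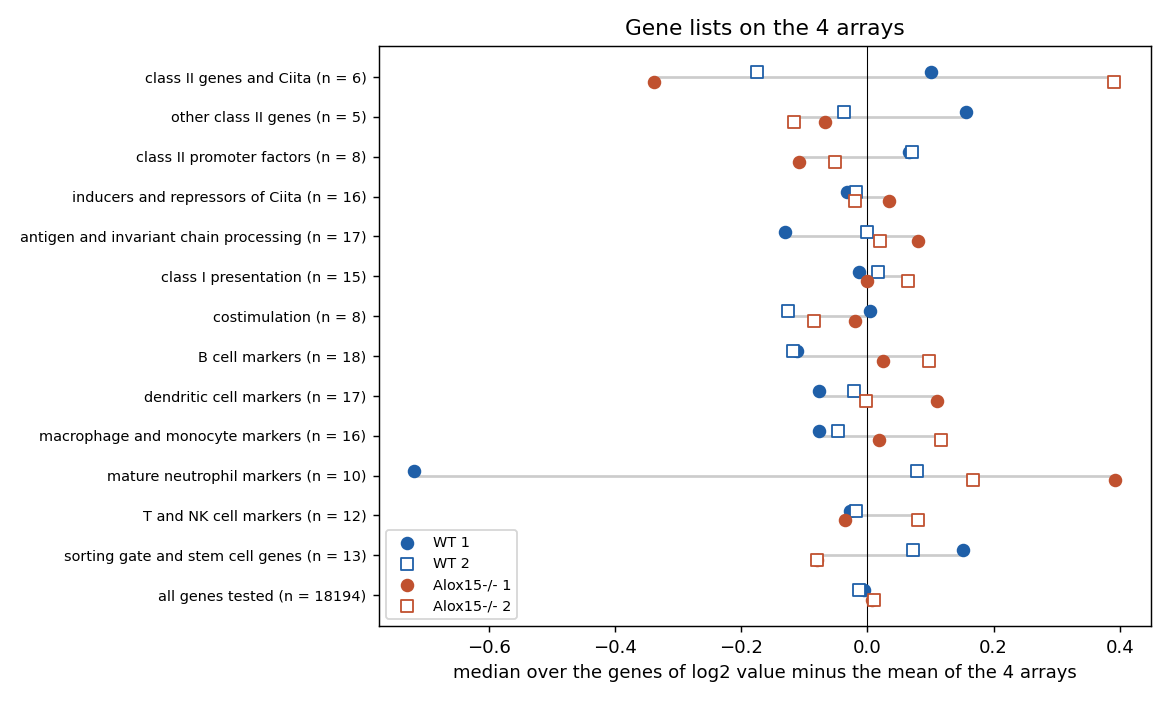
For each gene list (rows), the median over its genes of log2 values minus each gene's mean over the 4 arrays (x axis); blue is WT, orange Alox15-/-, filled circles replicate 1 and open squares replicate 2. The class II genes and Ciita spread from -0.34 in Alox15-/- replicate 1 to 0.39 in Alox15-/- replicate 2, whereas the medians of the B cell, dendritic cell and macrophage markers stay within 0.12 of 0.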

How the data were processed

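Values were the deposited log2 values of 45101 probe sets on 4 arrays, made by the authors with Affymetrix Expression Console 1.1 and RMA per the submitters' processing notes. RMA subtracts background, equalises the distributions of the arrays and summarises probes. Sorted columns differed by at most 0.0325, which ties every difference to the other genes of an array. Each column takes 1195 to 1228 distinct values, so small differences are coarse, and the number of arrays limits the precision. No source used here names a genome build.

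Probe sets were named from the platform annotation: 34958 had 1 symbol, 932 had several and were left out, and the symbols of 34754 matched RefSeq's GRCm38.p6 gene table. Groups came from the sample titles. All 18194 genes were compared, Alox15-/- minus WT, by lmFit and eBayes of limma 3.58.1 (R 4.3.3; two-sided and unblocked), and p-values were adjusted by Benjamini-Hochberg over all genes tested with a threshold of 0.05. The code was tested on simulated data. The 6 genes and 12 further lists were chosen with earlier results of these data known, and lists are described by counts and medians without a test. Named were each member at all probe sets, genes among the 4 with the widest difference in each pathway list, and the 5 nearest in pattern. H2-Eb2, the genes nearest to Cd74 and H2-Eb1 (Igk among them), Ighm, Csf1r and single defining markers fall outside that rule. Alternatives covered normalization, dim genes, variance moderation, array weights, probe set choice, a replicate block, thresholds and leaving out each array. Figures used matplotlib 3.10.9.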

Additional observations from a re-analysis of the deposited data

How the results depend on the processing

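None of the 6 genes passed the threshold under any of 15 other settings, 2 other thresholds or with each probe set as a unit, and 76 of 89 differences of single genes kept their sign. The mean of all probe sets turned H2-Ab1 to 0.13, H2-Ea to 0.058, H2-DMb2 to -0.03 and Nfyb to 0.0031. The probe set with the widest interquartile range turned H2-Aa to -0.0125, H2-Ab1 to 0.22, H2-Ea to 0.38, H2-DMb2 to -0.036, Nfyb to 0.16 and Il10ra to -0.0825. Each value under the latter setting is that of another probe set of the gene. The one of H2-Ea read 2.64 to 3.03, below the bacterial controls on every array. Why probe sets of a gene differ was not tested. Without 1 array the ranges were -0.20 to 0.45 for H2-Aa, -0.46 to 0.40 for H2-Ab1, -0.51 to 0.35 for H2-Eb1, -0.39 to 0.48 for Cd74, -0.044 to 0.25 for Ciita, -0.10 to 0.27 for H2-DMb2, -0.19 to 0.0675 for H2-Oa and -0.0038 to 0.096 for H2-Eb2. Of pathway genes, whose settings were added after seeing the data, 322 of 333 differences kept their sign. Over all genes 1 passed, against 22 with a mean-dependent prior variance, 3 with the widest interquartile range, 2 with each probe set as a unit, 0 without moderation and 0 without any 1 array.

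With the replicate number as a block, 0 of the 6 genes and 1 of all genes passed, the median over the 6 genes was 0.07, and no call changed. Deviations of same-numbered arrays correlated at -0.02 across genes, which are not independent, and the labels give the numbers no meaning beyond a count.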
